A study of Rattus norvegicus with 10 samples.

Results

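Interferon-stimulated genes are the genes that a cell turns on when interferon binds its receptors. A list of 40 of them was followed across 10 expression arrays of rat mammary tumors: 22 type I antiviral genes, 6 interferon-gamma type genes and 12 genes that both kinds of interferon induce. A member was read from probe sets (groups of short probes on the array) whose annotation gives its symbol alone, and where a gene had several, from the one with the highest mean over the 10 arrays. By this rule 35 of the 40 were measured, of 14217 genes with a probe set of their own, and all 35 were tested. They comprised 19 type I antiviral genes, 5 interferon-gamma type genes and 11 genes induced by both. Oas2, Oasl2, Gbp5, Xaf1 and Ddx58 had no probe set under their own symbol.

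Female Sprague-Dawley rats had received 1 oral dose of the carcinogen DMBA at 100 mg/kg, which induces mammary tumors. The 5 tumors carry the codes 09I1, 11D2, 12I1, 29I1 and, last, 43D1, and each was sampled at 12 weeks of age before any treatment (basal, n = 5). The same tumors were sampled again at 19 weeks of age (final, n = 5), after adriamycin at 1 mg/kg per week for 6 weeks into the tail vein. Adriamycin is an anthracycline that damages DNA through topoisomerase II, and the comparison is of each tumor with itself before and after treatment. The later age has no untreated tumor, so treatment and age cannot be told apart. The basal sample was a needle biopsy. The final sample is named the whole tumor in the sample labels and a needle sample in the design text. The codes that end the sample titles do not mix between the groups, and the labels do not say what they stand for. Any batch that follows these codes could not be told apart from group either. The labels do not say that the tumors came from separate rats, so p-values measure the spread between these tumors. In bulk tissue, fewer cells of a type and less RNA per cell cannot be told apart.

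Type I interferons (the alpha, beta and kappa forms) signal through the kinases JAK1 and TYK2 to a complex that includes STAT2 and IRF9 and binds a promoter element called ISRE. Interferon-gamma, made mostly by T and NK cells, acts through a different element, GAS, and IRF1, itself an interferon-gamma target, then acts on ISRE-like elements. The induced proteins degrade viral RNA, block translation or virus release, and present antigen to T cells. DNA damage by anthracyclines is among the known triggers of type I interferon in tumor cells.

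The promoters are shown because both classes of gene were read against these elements. RefSeq promoter windows of 300 bases (250 before the start site to 50 after, assembly GRCr8) were at hand for 30 of the 40 members. An ISRE-like match, GAAA then any 2 bases then GAAA on either strand (TTTC, any 2 bases, TTTC when read on the opposite one), was found in 20 of the 30, or 66.7%, against 3.92% of all 33469 windows. A GAS-like match, TTCNNNGAA, which reads the same on both strands, was found in 10 of the 30, or 33.3%, against 8.87%. The 2 classes were not separated by these letters, since an ISRE-like match was in 11 of 15 type I windows and 5 of 6 interferon-gamma type windows, and a GAS-like one in 4 of 15 and 3 of 6. A match is a description of the letters and was not measured as a binding site. The stretches below give each gene's ISRE-like match with its surroundings on the gene's own strand, with ISRE-like and GAS-like letters in capitals.
Oas1a, chr12:41330400-41330465, plus strand: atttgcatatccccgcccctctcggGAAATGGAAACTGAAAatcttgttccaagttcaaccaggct
Oas1b, chr12:41395871-41395936, minus strand: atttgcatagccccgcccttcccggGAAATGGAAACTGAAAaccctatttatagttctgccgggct
Irf7, chr1:205800058-205800117, minus strand: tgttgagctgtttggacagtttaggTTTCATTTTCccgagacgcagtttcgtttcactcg
Rsad2, chr6:48788233-48788292, minus strand: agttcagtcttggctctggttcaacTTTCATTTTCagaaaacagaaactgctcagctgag
Bst2, chr16:18255058-18255129, minus strand: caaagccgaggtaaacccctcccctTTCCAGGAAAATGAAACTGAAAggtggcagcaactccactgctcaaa
Gbp2, chr2:234005671-234005726, plus strand: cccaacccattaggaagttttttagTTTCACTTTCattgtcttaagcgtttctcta
Igtp, chr10:42874908-42874978, plus strand: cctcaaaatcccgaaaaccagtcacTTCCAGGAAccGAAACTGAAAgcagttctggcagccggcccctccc
Irgm, chr10:33742579-33742648, minus strand: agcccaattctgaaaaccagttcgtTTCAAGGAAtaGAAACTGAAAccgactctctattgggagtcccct
Parp14, chr11:78408022-78408092, plus strand: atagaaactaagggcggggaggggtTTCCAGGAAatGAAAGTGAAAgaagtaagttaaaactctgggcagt

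Oas1a and Oas1b are copies of the 2'-5' oligoadenylate synthetase gene on chromosome 12. Their start sites lie 65386 bases apart, with 2 other RefSeq genes wholly between them. They carry the same capitals, and 54 of the 66 bases of their stretches are identical. The nearest ISRE-like match starts 35 bases before the start site in Oas1a, 53 in Oas1b, 69 in Irf7 and 147 in Rsad2. In Igtp, Irgm and Parp14 a GAS-like match lies 2 bases before the ISRE-like one. In Bst2 the GAS-like and ISRE-like letters overlap, an arrangement found in 1 of the 30 member windows and in 14 of all 33469.

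Values are log2 signals after the authors' robust multichip averaging, so a difference of 1 is a 2-fold difference. The array medians lay between 5.93 and 6.11. The tissue label fits its markers: the 6 luminal mammary genes Krt8, Krt18, Krt19, Epcam, Cdh1 and Elf3 had a mean level of 11.0 to 12.0 on every array, against 7.77 to 7.89 for all genes tested. One array, that of the final 09I1 sample, differed from the rest, with a median correlation to the others of 0.938 (0.975 to 0.984 for the other 9). Its 3' minus 5' beta-actin difference was 2.61 log2 units (0.72 to 0.96 for the other 9). Mean changes of the members and pathway genes named below that move by over 1.5 times without tumor 09I1 are therefore also given without it.

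None of the 35 measured genes passed the threshold between final and basal samples in limma's paired test (adjusted p 0.850 to 0.998 over all 23281 tested probe sets). Over all tested probe sets that share was 0%, while 4.02% lay at an unadjusted p under 0.05, and the methods' paired t-test also called 0 of the members after adjustment and 3 before it. At an unadjusted p under 0.05, limma named Bst2, Oasl and Irf7 as higher and Rsad2 as lower in the final samples. That is 3 of 35 higher and 1 of 35 lower, where 1.78% and 1.1% of all 12255 genes tested lay. Irf7, Oas1b, Oasl, Ifi44, Rtp4 and Bst2, all type I antiviral genes, were higher in the final sample of all 5 tumors. That is 6 of 35, against 3.33% of all genes tested. The count lower in all 5 tumors was 0 of 35, against 2.51%. Basal 43D1 was the lowest of the 10 arrays for 27 of the 35 members, against 13.2% of all genes. Those members had to be higher at the end in 43D1, which bears on both counts over all 5 tumors. The groups overlapped for every member, while 0.84% of all genes had groups that did not overlap. The median change was 0.07 over the members and 0.01 over all genes tested, and without 09I1 it was 0.16 and -0.01.

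The members varied more between arrays than most genes, with a median SD over the 10 arrays of 0.50, against 0.29 for all genes tested. Deviations from the group mean, correlated over the 35 genes between the basal and final samples of a tumor, gave 0.41 in 09I1 and 0.56 in 43D1. The values were 0.20 in 11D2, -0.02 in 12I1 and -0.19 in 29I1. The basal array of 43D1 was the lowest of the 10 for 27 of the 35 members, where 13.2% of all genes had their lowest value. It held the minimum for 18 of the 19 type I genes, all but Herc6, and for 4 of the 5 interferon-gamma type genes, all but Gbp4. The basal array of 09I1 was the highest for 10 members (8.02% of all genes), and the basal array of 29I1 for 10 (10.5%). The final array of 09I1 was the highest for 11 members, but it was also the highest for 35.1% of all genes.

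**Figure D1:**
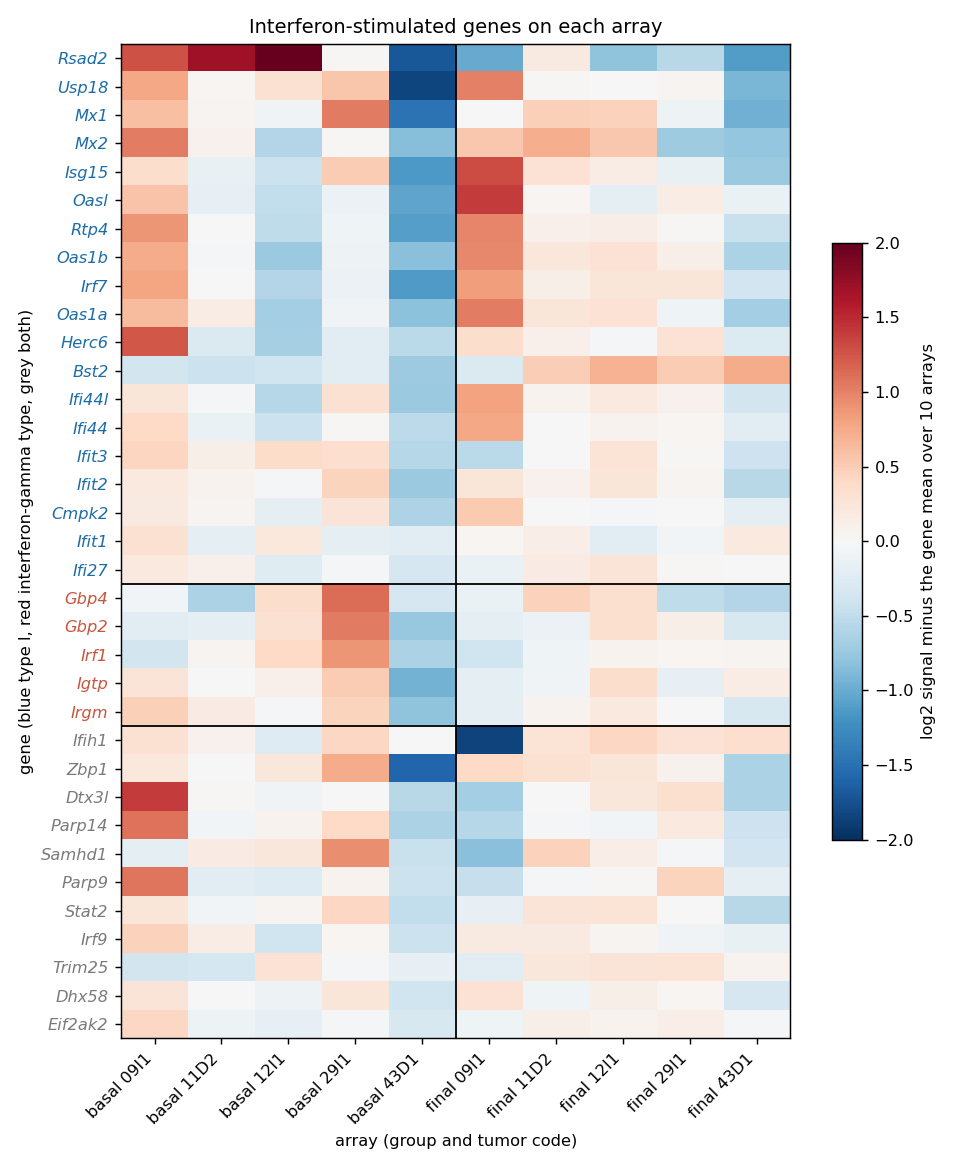
Log2 signal of each of the 35 measured genes (rows, grouped by class and sorted by spread) on each of the 10 arrays (columns, basal on the left and final on the right), minus the gene's mean over the 10 arrays; colours end at 2 units on either side, so larger differences share the end colour. The basal 43D1 column is blue for nearly all genes, tumor 09I1 is red for most type I genes at both samplings, and the Bst2 row is blue on all 5 basal arrays and red on 4 of the 5 final ones.

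Among the transcription factors, values are listed for each gene in the tumor order 09I1, 11D2, 12I1, 29I1 and 43D1. Irf7, which amplifies interferon-alpha production, was at 10.32, 9.54, 8.95, 9.41 and 8.40 on the basal arrays and at 10.36, 9.65, 9.78, 9.77 and 9.16 on the final arrays. Each tumor was higher at the final sampling, by as little as 0.04 in 09I1 and as much as 0.83 in 12I1, and tumor 09I1 lay above the others both times. The mean went from 9.32 ± 0.71 to 9.74 ± 0.43 (SD, n = 5 each), a change of 0.42 ± 0.16 (SE; limma, unadjusted p = 0.0365, adjusted p = 0.977). Irf1, the interferon-gamma type factor, was at 9.30, 9.72, 10.06, 10.54 and 9.03 in the basal and 9.27, 9.57, 9.74, 9.70 and 9.73 in the final samples. Its basal values spread widely (SD 0.60) with 29I1 on top, the final values lay close together (SD 0.20), and 43D1 alone was higher at the end (change -0.13 ± 0.22 SE). Irf9 and Stat2, both part of the ISRE-binding complex, had mean changes of 0.08 ± 0.15 and -0.07 ± 0.16, and of 0.17 and 0.02 without 09I1.

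Oasl, an oligoadenylate synthetase relative, was at 8.07, 7.34, 7.01, 7.37 and 6.44 in the basal samples and at 8.89, 7.53, 7.32, 7.65 and 7.36 in the final ones. Every tumor was higher at the end, with the largest steps in 43D1 (0.92) and 09I1 (0.83) and the smallest in 11D2 (0.20). The change was 0.51 ± 0.17 (SE, n = 5 pairs; limma, unadjusted p = 0.0225, adjusted p = 0.977), and 0.43 without tumor 09I1. Oas1b was higher in all 5 tumors (0.39 ± 0.18) and Oas1a in 4 of 5 (0.31 ± 0.18). These copies are similar in sequence, so their probe sets may share signal, and which copy a difference belongs to is uncertain. The IFIT genes, whose proteins bind foreign RNA and hold back its translation, had mean changes of 0.04 for Ifit1, 0.03 for Ifit2 and -0.27 for Ifit3. Without 09I1 the change was 0.11 for Ifit1 and -0.10 for Ifit3. Ifit1 lay in the lowest 25% of all signals on 5 of the 10 arrays.

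**Figure D2:**
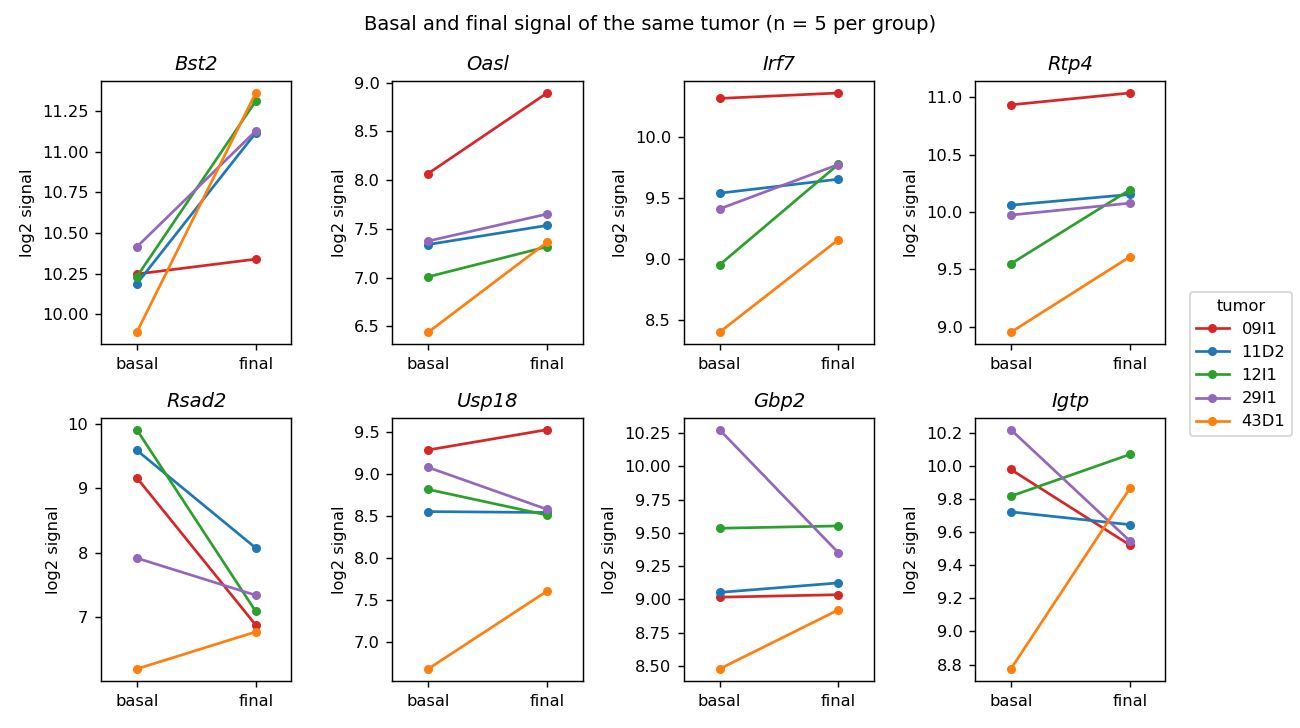
Log2 signal of 8 members in the basal and the final sample of the same tumor (1 line per tumor, n = 5 per group); each vertical axis has its own range and does not start at 0. Bst2, Oasl, Irf7 and Rtp4 slope upward in all 5 tumors, Rsad2 slopes downward in every tumor except 43D1, and the lines of Usp18, Gbp2 and Igtp run in both directions.

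Bst2 had the smallest p of the members. It encodes tetherin, which holds budding virus particles at the cell surface. Bst2 was at 10.25, 10.19, 10.23, 10.41 and 9.89 in the basal samples and at 10.34, 11.12, 11.31, 11.13 and 11.36 in the final ones. The basal values were close together, and 4 of the 5 final values lay above all of them, but the final value of 09I1 lay inside the basal range. The mean went from 10.19 ± 0.19 to 11.05 ± 0.41, a change of 0.86 ± 0.20 (SE; limma, unadjusted p = 0.00339, adjusted p = 0.850). Without tumor 09I1 the change was 1.05 and the adjusted p 0.403. Bst2 also differed from its class in pattern, since its values over the 10 arrays had a correlation of 0.04 with the mean of the other type I genes, against 0.95 for Rtp4 and 0.93 for Irf7.

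Rsad2 (viperin, an enzyme that makes a chain-terminating nucleotide) was the most variable member, with an SD of 1.28 over the 10 arrays. It was at 9.16, 9.59, 9.91, 7.92 and 6.20 in the basal samples and at 6.88, 8.07, 7.09, 7.34 and 6.77 in the final ones. The 3 highest values were all basal, and the lowest value was basal too, that of 43D1. The change was -1.32 ± 0.47 (SE; limma, unadjusted p = 0.026, adjusted p = 0.977), running from -2.81 in 12I1 to 0.57 in 43D1. Without 43D1 it was -1.80, and without 09I1 it was -1.08. Its correlation with the mean of the other type I genes was 0.23.

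Rtp4, which binds viral RNA, was at 10.93, 10.06, 9.55, 9.97 and 8.95 in the basal samples and at 11.04, 10.15, 10.19, 10.08 and 9.61 in the final ones. All 5 tumors were higher at the end, most clearly 12I1 and 43D1, and the change was 0.32 ± 0.15 (SE; limma, adjusted p = 0.977). Of the remaining effectors, Ifi44 was higher in all 5 tumors (0.26 ± 0.15), and Ifi44l in 4 of 5 (0.32 ± 0.18). Cmpk2, a mitochondrial nucleotide kinase, and Ifi27 both had a mean change of 0.12, which without 09I1 was 0.07 and 0.23. Samhd1, which depletes the nucleotides that viruses need, had a mean change of -0.27 ± 0.22, and of -0.18 without 09I1.

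The antiviral Mx GTPases trap viral nucleocapsids. Mx1 was at 8.23, 7.68, 7.55, 8.66 and 6.15 in the basal samples and at 7.63, 8.11, 8.10, 7.54 and 6.67 in the final ones. Mx2 was at 10.09, 9.15, 8.48, 9.09 and 8.21, then at 9.60, 9.78, 9.60, 8.35 and 8.28. Both genes were higher at the end in 11D2, 12I1 and 43D1 and lower in 09I1 and 29I1, and the mean changes were -0.05 ± 0.29 and 0.12 ± 0.28 (SE), or 0.09 and 0.27 without 09I1.

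Guanylate-binding proteins and immunity-related GTPases attack the vacuoles of intracellular pathogens, and they formed most of the interferon-gamma class. Gbp2 was at 9.02, 9.05, 9.54, 10.28 and 8.48 in the basal samples and at 9.04, 9.12, 9.55, 9.35 and 8.92 in the final ones. The differences were at most 0.07 in the first 3 tumors, -0.93 in 29I1 and 0.44 in 43D1. Gbp4 was at 5.52, 4.94, 5.92, 6.70 and 5.24, then at 5.44, 6.04, 5.90, 5.07 and 5.00. It was lower at the end in every tumor except 11D2, and here too the basal sample of 29I1 was the highest of the 10. Igtp was at 9.98, 9.72, 9.82, 10.22 and 8.77, then at 9.52, 9.64, 10.07, 9.55 and 9.86, and Irgm at 9.11, 8.79, 8.60, 9.07 and 7.82, then at 8.43, 8.70, 8.82, 8.63 and 8.31. Both were higher at the end in 12I1 and 43D1 and lower in the other tumors. By its other probe set, Igtp was higher by 0.24 in 11D2. The mean changes of these 4 genes lay between -0.17 and 0.03, each smaller than its standard error. Without 09I1 the change was 0.15 for Igtp and 0.04 for Irgm.

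In the ISG15 system, which couples a ubiquitin-like protein to others, Isg15 was at 9.55, 9.05, 8.76, 9.70 and 8.04 in the basal samples and at 10.50, 9.49, 9.35, 9.05 and 8.46 in the final ones. It was higher in 4 of 5 tumors, lower in 29I1, with a mean change of 0.35 ± 0.23 (SE). The change was 0.20 without 09I1 and 0.60 without 29I1. Usp18, which removes ISG15 and restrains the type I receptor, was at 9.29, 8.55, 8.82, 9.08 and 6.69, then at 9.53, 8.54, 8.51, 8.58 and 7.61. Tumor 43D1 was well below the others at both samplings, and the mean change was 0.07 ± 0.22, or 0.03 without 09I1. Parp9 and its partner ligase Dtx3l, together with Parp14, were higher in basal 09I1 than on any other array with changes in that tumor of -1.54, -2.08 and -1.66. Without 09I1 their mean changes were 0.27, 0.13 and -0.03. The ubiquitin ligases Herc6 and Trim25 had mean changes of 0.18 ± 0.23 and 0.25 ± 0.14. Herc6 was lower by 0.89 in 09I1 and higher in the other 4 tumors, and without 09I1 its change was 0.45 (limma, unadjusted p = 0.00865, adjusted p = 0.504).

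The sensors detect viral nucleic acid in the cytosol. Ifih1 (MDA5) was at 6.46, 6.23, 5.88, 6.56 and 6.14 in the basal samples and at 4.29, 6.41, 6.55, 6.44 and 6.49 in the final ones. Only the final value of 09I1 stood apart, and the change was -0.22 ± 0.40 with it and 0.27 without it. Zbp1, a sensor of Z-form nucleic acid that can trigger cell death, was at 7.90, 7.69, 7.91, 8.42 and 6.10, then at 8.08, 7.99, 7.93, 7.77 and 7.04. It was lowest in 43D1 both times and was higher at the end in 4 of 5 tumors (0.16 ± 0.23). Dhx58 and Eif2ak2 (the kinase PKR) had mean changes of 0.01 and 0.08, which without 09I1 were 0.0043 and 0.23. The annotation lists a gene as Rig1 whose Entrez identifier RefSeq pairs with the older symbol Ddx58, the sensor RIG-I. It was kept outside the counts and had a mean change of 0.14 ± 0.18, from 8.27 ± 0.34 to 8.41 ± 0.14 (SD, n = 5 each). Rig1 was lower by 0.54 at the end in 09I1 and higher in the other 4 tumors, by 0.29, 0.51, 0.29 and 0.15.

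The probe sets of a gene did not always give the same change in tumor 09I1. Of the 35 genes, 8 had more than 1 probe set, giving 9 comparisons with the brightest one. For Igtp the change in 09I1 was -0.46 by the brightest probe set and -2.90 by the other, for Ifit2 it was 0.04 and -1.86, and for Parp14 -1.66 and -2.90. In the final 09I1 sample the difference between the probe sets departed from its median over the other 9 arrays by -2.87 for Igtp, -1.90 for Ifit2, -1.26 for Parp14 and -0.98 for Cmpk2, and by 0.36 for Stat2 and 0.24 for Irf9. It fell outside the range of the other 9 arrays in 7 of the 9 comparisons. For some genes the signs of the change also differed in other tumors. By the brightest and the other probe set, Cmpk2 had -0.25 and 0.28 in 29I1. Igtp had -0.08 and 0.24 in 11D2, and Ifit2 had 0.18 and -0.11 in 43D1. The 3' to 5' imbalance of that array is given above, and its part in these differences was not tested.

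**Figure D3:**
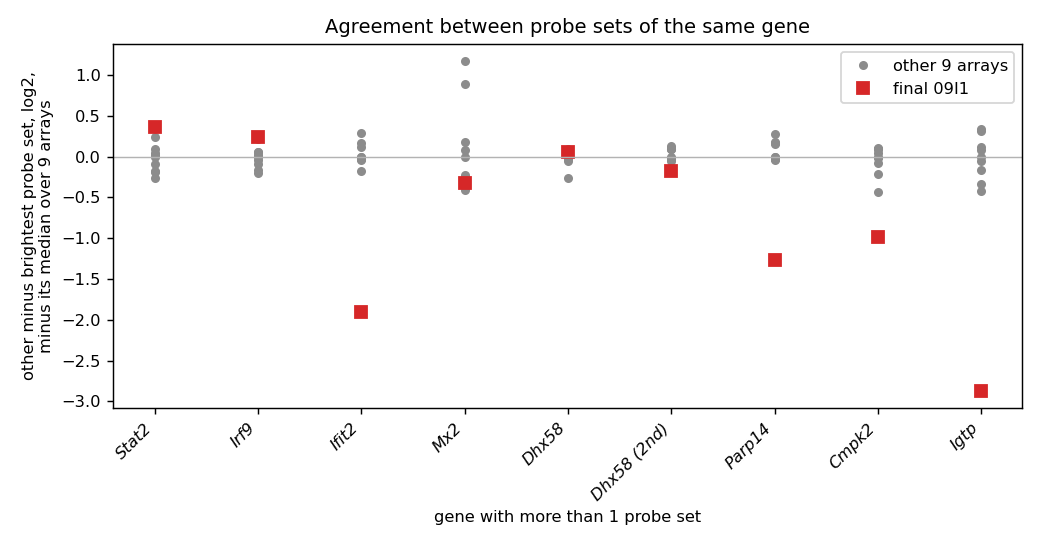
Difference in log2 signal between another probe set of a gene and its brightest one, minus the median of that difference over the 9 other arrays (grey circles, 9 arrays; red square, final 09I1; "2nd" marks the second additional probe set of Dhx58). The red squares of Ifit2, Parp14, Cmpk2 and Igtp lie between -2.87 and -0.98, below all grey points of their genes.

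Type I and interferon-gamma type genes followed different orders across the tumors. Each gene was centred on its mean over the 10 arrays and the median was taken over each class. In the basal samples the type I median was 0.57, 0.01, -0.43, 0.02 and -0.82 in the tumor order above, and the interferon-gamma type median was -0.06, 0.01, 0.30, 0.88 and -0.76. Tumor 09I1 was thus highest for the first class and 29I1 for the second, while 43D1 was lowest for both. In the final samples the type I median was 0.54, 0.12, 0.19, 0.02 and -0.42, and the interferon-gamma type median was -0.20, -0.07, 0.32, 0.00 and -0.31. The distance from 09I1 to 43D1 in the type I class was present at both samplings, and the excess of 29I1 in the interferon-gamma class was a feature of the basal sample alone. The medians of all genes tested lay between -0.04 and 0.11 on these arrays. The difference between the classes was not tested.

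**Figure D4:**
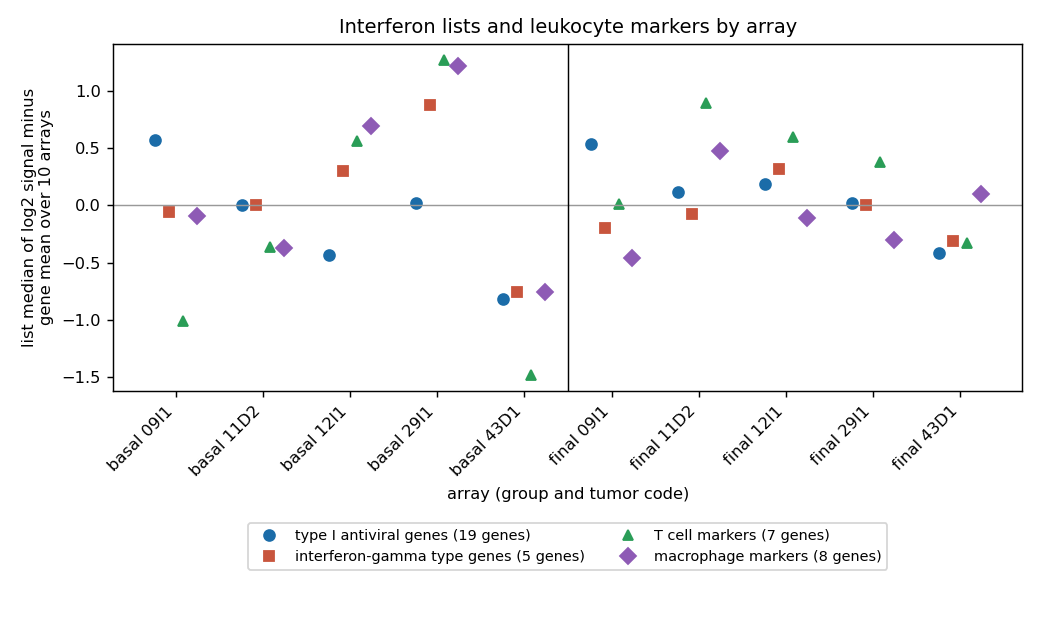
Median over the genes of a list of log2 signal minus each gene's mean over the 10 arrays (vertical axis), for each array (horizontal axis), with type I antiviral genes as blue circles, interferon-gamma type genes as red squares, T cell markers as green triangles and macrophage markers as purple diamonds. Tumor 09I1 has the highest blue circles in both groups (0.57 and 0.54), and basal 29I1 has the highest red square, triangle and diamond (0.88, 1.27 and 1.21).

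Within tumors, the type I genes had a median change of 0.18 over the 19 genes, 16 with a mean above 0 and 3 below. In 09I1 the median was 0.09, with 12 of 19 genes higher at the end, beside 58.6% of all genes. In 11D2 it was 0.11, with 15 higher (47.1% of all genes). In 12I1 it was 0.54, with 15 higher (56.9%). Tumor 29I1 had a median of -0.03, with 9 higher (45.7%), and 43D1 had 0.42, with all 19 higher (48.9%). Basal 43D1 was the lowest of the 10 arrays for 18 of the 19 (13.2% of all genes). Those 18 therefore had to be higher in its final sample, and the count restates the low basal array. The median over the 19 genes and all tumors stayed above 0 under cyclic loess (0.15) and after centring (0.21). The interferon-gamma type genes had a median of -0.10, with 1 of 5 above 0. By tumor it was -0.08, -0.08, 0.02, -0.84 and 0.48, with opposite signs in 29I1 and 43D1. Basal 29I1 was the highest array for 4 of the 5 genes (10.5% of all genes). Basal 43D1 was the lowest for 4 of the 5 (13.2%), so the signs in these tumors restate the basal extremes. Without 29I1 the median was 0.14, above 0. The 11 genes induced by both had a median of -0.07, and 0.16 without 09I1.

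In the basal samples, 3 of the 6 leukocyte lists, those of T cells, NK cells and macrophages, had the same highest and lowest tumor as the interferon-gamma class. In the T cell list, 7 of 8 markers were tested, and their median in the basal samples was -1.01, -0.36, 0.57, 1.27 and -1.48. The macrophage median, from 8 of 8 markers, was -0.09, -0.37, 0.69, 1.21 and -0.76, and the NK cell median, from 5 of 6 with Ncr1 below the filter, was -0.67, -0.61, 0.63, 0.98 and -1.44. In these 3 lists basal 29I1 was the highest of the 10 arrays and basal 43D1 the lowest. The final samples had T cell medians of 0.01, 0.89, 0.60, 0.38 and -0.33 and macrophage medians of -0.46, 0.48, -0.11, -0.31 and 0.10. Within tumors the T cell list had a median change of -0.97 in 29I1 and 1.12 in 43D1, and the macrophage list of -1.43 and 1.21. In 11D2 the T cell list had a median change of 1.36 and the macrophage list of 0.86, and in 12I1 they had 0.02 and -0.85, while the interferon-gamma class had -0.08 and 0.02. The other 3 lists had another order in the basal samples: neutrophil markers (2 of 4 tested) were at -0.52, 0.81, 0.77, 0.93 and 0.65, B cell and plasma cell markers (2 of 5) at -0.37, 0.05, 0.67, 0.31 and -0.25, and dendritic cell markers (4 of 6) at -0.18, -0.08, 0.08, 0.57 and 0.05. Summed marker signal, on a log2 scale, ran from 9.17 to 12.02 in basal and 10.44 to 11.61 in final samples for T cells. It ran from 12.36 to 14.46 and 12.61 to 13.70 for macrophages, and from 6.25 to 8.69 and 7.78 to 8.62 for NK cells. Outside the leukocyte lists, basal 29I1 was also the highest basal sample for endothelial (0.53) and fibroblast markers (0.70). Basal 43D1 was the lowest basal sample for neither of these. For luminal, myoepithelial and skeletal muscle markers 29I1 was not the highest basal sample. Basal 43D1 was the lowest basal sample for luminal markers (-0.19, with 29I1 at -0.16). Tumor 09I1 carried its high type I values with T cell medians of -1.01 and 0.01. The part of these cells in the interferon results was not tested.

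Among the interferons themselves, 3 of the 11 ligands listed had a probe set of their own, and 1 of these passed the filter on low signals. Ifnk, interferon kappa, a type I interferon known from skin epithelium, was at 8.52, 7.45, 7.36, 5.84 and 4.70 in the basal samples and at 9.49, 7.47, 7.99, 6.93 and 5.14 in the final ones. All 5 tumors were higher at the end, and the order of the tumors was nearly the same both times, from 09I1 on top to 43D1 at the bottom. The change was 0.63 ± 0.20 (SE; limma, unadjusted p = 0.0148, adjusted p = 0.977). Ifnb1 (mean 3.50) and Ifng (mean 3.10), interferon beta and gamma, lay in the lowest 25% of signals on all 10 arrays and were not tested.

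Ifnk had a Pearson correlation of 0.86 with the mean profile of the type I class over the 10 arrays, rank 24 of 12220 genes outside the list, and of 0.16 with the interferon-gamma class. The 10 points come from 5 tumors with 2 samples each. Without the 4 arrays of 09I1 and 43D1 the correlation with the type I class was -0.05, so it rests on those tumors. This is a description of 10 arrays, with no test.

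**Figure D5:**
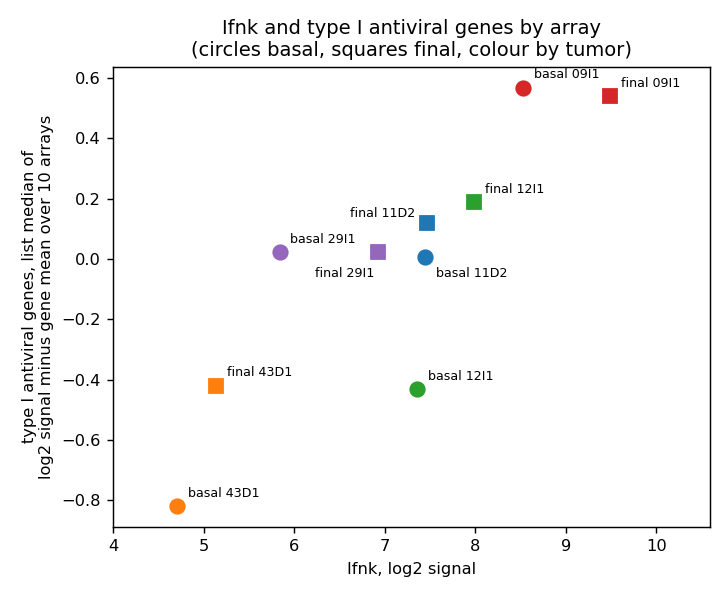
Ifnk log2 signal (horizontal axis, starting at 4) against the type I class median of centred log2 signal (vertical axis) on each of the 10 arrays; circles are basal, squares are final, and colour marks the tumor. Both arrays of 09I1 lie at the top right and both of 43D1 at the bottom left. The other 6 arrays lie between them on the horizontal axis, in no clear order. On the vertical axis basal 12I1 (-0.43) lies just below final 43D1 (-0.42).

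Of the 15 receptors, kinases and regulators listed, 14 were tested, and limma called 0 (5 had a mean change above 0 and 9 below, median -0.04). Without 09I1 the median of this list was 0.06. Il10rb, a subunit of the lambda interferon receptor, had a mean change of 0.25 ± 0.13 and was higher in 4 of 5 tumors. Of 17 genes of nucleic acid sensing upstream of interferon, 11 were tested and 0 called, with 3 above 0 and 8 below. Tlr7, the endosomal sensor of single-stranded RNA, had a mean change of -0.37 ± 0.24, which was -0.17 without 29I1 and -0.61 without 43D1. Of 18 interferon-gamma induced chemokine and antigen presentation genes, 16 were tested and 0 called, with 11 above 0 and 5 below. In these 3 lists and among the ligands, Ifnk alone had an unadjusted p under 0.05.

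Cxcl10, a chemokine that draws T cells, was at 6.55, 6.97, 7.62, 9.30 and 4.71 in the basal samples and at 6.06, 7.22, 7.53, 6.38 and 5.34 in the final ones. As for Gbp2, its highest value was in basal 29I1 and its lowest in basal 43D1, and it was lower by 2.92 at the end in 29I1. The mean change was -0.53 ± 0.49, and 0.07 without 29I1. Tap1, which carries peptides for antigen presentation, had a mean change of -0.25 ± 0.17 and Psmb9, an immunoproteasome subunit, of 0.11 ± 0.15. Without 09I1 these were -0.12 and -0.02.

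Of all genes outside the list, Cxcl10 was the most like the mean profile of the interferon-gamma class (Pearson r = 0.96 over the 10 arrays), followed by Itgal, a leukocyte integrin (0.94), Cd40 (0.94), Klhl6 (0.93), Mall (0.93) and Tnfrsf14 (0.92). For the type I class the nearest were RT1-T24-3, a class I histocompatibility gene (0.94), Plin2, a lipid droplet protein (0.93), Numbl (0.93), Lgals9, a galectin (0.92), Plcd1 (0.91) and Ifi27l2b, a relative of Ifi27 (0.90). The 2 sets of 6 had no gene in common. Without the arrays of 09I1 and 43D1, r with the type I class was 0.92 for Lgals9, 0.88 for RT1-T24-3, 0.71 for Plin2 and Numbl, 0.47 for Plcd1 and 0.43 for Ifi27l2b. For the 6 genes near the interferon-gamma class it ran from 0.86 (Mall) to 0.98 (Cxcl10). Members did not all lie nearer to their own class. Rtp4 had r = 0.95 with the other type I genes and 0.24 with the interferon-gamma class, and Gbp2 had 0.37 and, leaving itself out, 0.93. The type I members Mx1 and Ifit3 were nearer to the interferon-gamma class (0.84 against 0.80, and 0.76 against 0.44), and so were Rsad2 (0.40 against 0.23) and Bst2 (0.19 against 0.04). Irgm, of the interferon-gamma class, was nearer to the type I genes (0.79 against 0.71).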

How the data were processed

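The deposited values are log2 signals of 31099 probe sets on 10 Affymetrix rat arrays. Robust multichip averaging was the authors' normalization, per the labels' protocols, and they removed controls and signals near background, and applied a paired Student's t-test in GeneSpring GX 7.3. All 57 controls were still present in the values analysed. Of the probe sets, 20832 carried 1 gene symbol in the platform annotation, 436 several and 9831 none, and 20764 matched RefSeq (GRCr8) by Entrez identifier.

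Here the controls and the lowest 25% by mean over 10 arrays (4.11) were left out. The final and basal samples were compared in limma 3.58.1 (R 4.3.3), blocking on tumor and letting the variance follow intensity, and p-values were adjusted by Benjamini-Hochberg over 23281 probe sets, with a threshold of 0.05. Precision is limited by the number of arrays. The pairing comes from tumor codes in the labels. Across tested probe sets, the deviations of a tumor's basal and final arrays from their group means correlated by -0.15 in 29I1, 0.22 in 43D1 and 0.014 to 0.095 in the others.

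Members, gene lists and rules were chosen with earlier results of these data known. Values in every sample are given for the 8 members with the highest SD over the arrays, the 5 with the smallest p and the interferon-gamma type genes. Pathway genes named are Ifng, Ifnb1, Cxcl10, Tap1, Psmb9 and the 3 with the smallest p, and the 6 genes most like each class are named by Pearson correlation. Alternatives were no block, a random block, other filters, cyclic loess, centring, array weights, no trend, averaging a gene's probe sets, the methods' paired t-test and leaving out each tumor. Correlations without some arrays were chosen after seeing the data. Promoter letters came from RefSeq. Figures were drawn with matplotlib 3.10.9.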

Additional observations from a re-analysis of the deposited data

Results flagged for a closer look

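Of 105 sets of 5 values (each of the 35 members in the basal samples, the final samples and the changes), 13 held 1 value far from the other 4 by Dixon's gap ratio, where chance gives about 1 in 20 or 5.25. The sets are not independent, since changes are made from the basal and final values and all genes share the same arrays. The 5.25 is therefore only a rough guide. Tumor 09I1 supplied 10 of the 13. In its final sample, Ifih1 was at 4.29 (6.41 to 6.55 in the other tumors), Bst2 at 10.34 (11.12 to 11.36) and Oasl at 8.89 (7.32 to 7.65). In its basal sample, Herc6 was at 5.98 (4.08 to 4.52). Its change was -2.17 for Ifih1 (-0.12 to 0.67 in the others), -0.89 for Herc6 (0.27 to 0.63) and -1.54 for Parp9 (0.19 to 0.37). It was -1.66 for Parp14 (-0.21 to 0.21), -2.08 for Dtx3l (-0.08 to 0.32) and -0.50 for Eif2ak2 (0.18 to 0.30). The final array of that tumor also stood apart in its 3' to 5' signal, and its part in these values was not tested.

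Tumor 43D1 supplied 2, with Usp18 at 6.69 in the basal sample (8.55 to 9.29 in the others) and Ifit2 at 7.33 in the final one (7.95 to 8.14). In tumor 12I1 the change of Oas1b was 1.04, against 0.20 to 0.25 in the other tumors.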

How the results depend on the processing

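In each of the 15 alternatives limma or the methods' t-test called 0 members. The fit without the replicate block also called 0 of 35 members and 0 probe sets, with 1 member at an unadjusted p under 0.05 in place of 4. The smallest adjusted p of a member was 0.157 with array weights, 0.403 without 09I1 and 0.522 or more elsewhere. At an unadjusted p under 0.05 lay 935 probe sets, 2440 with array weights, 465 with the lowest 50% left out, 1868 without 09I1 and 608 without 11D2. The type I median ranged from 0.15 to 0.33 and the interferon-gamma type median from -0.24 to 0.14, above 0 only without 29I1. Of the 35 genes, 18 kept their direction throughout, Bst2, Oasl, Irf7, Rtp4 and Rsad2 among them. With array weights, which count both arrays of 09I1 less (0.225) and those of 11D2 more (3.09), the direction turned for Parp9 (0.18), Dtx3l (0.0040), Stat2 (0.090), Mx1 (0.18), Dhx58 (-0.015), Ifih1 (0.17) and Gbp4 (0.20). It turned for Igtp (-0.10) and Ifit2 (-0.21) in the mean over probe sets, and for Ifit1 (-0.023) under cyclic loess. With each tumor left out in turn, changes ran from -0.042 to 0.059 for Dhx58, -0.47 to 0.13 for Dtx3l, -0.20 to 0.14 for Gbp2, -0.49 to 0.19 for Gbp4, -0.44 to 0.27 for Ifih1, -0.061 to 0.15 for Ifit1, -0.040 to 0.13 for Ifit2, -0.24 to 0.20 for Igtp and -0.34 to 0.048 for Irf1. They ran from -0.017 to 0.17 for Irf9, -0.25 to 0.044 for Irgm, -0.19 to 0.22 for Mx1, -0.13 to 0.34 for Mx2, -0.21 to 0.27 for Parp9, -0.16 to 0.017 for Stat2, -0.14 to 0.21 for Usp18 and -0.036 to 0.36 for Zbp1. The cause of these turns was not tested.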

Other observations

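Members that are neighbours in the genome did not always have like values. Rsad2 and Cmpk2 face away from each other on chromosome 6, with start sites 14730 bases apart and no other RefSeq gene wholly between them. Rsad2 was lower by 2.81 at the end in tumor 12I1 and Cmpk2 higher by 0.15. In 09I1 Rsad2 was lower by 2.28 and Cmpk2 higher by 0.34 by its brightest probe set. By the other Cmpk2 probe set the change was 0.14 in 12I1 but -0.69 in 09I1, so the contrast in 09I1 depends on the probe set. Parp9 and Dtx3l, with start sites 1214 bases apart on chromosome 11, were both highest in basal 09I1 (11.51 and 11.01) and both lowest in final 09I1 (9.97 and 8.93). Of all genes, 8.02% were highest in basal 09I1 and 23.8% lowest in final 09I1. Ifi44 and Ifi44l, 24883 bases apart on chromosome 2, were both highest in final 09I1 and lowest in basal 43D1. Final 09I1 was the highest array for 10 of the 19 type I genes and 35.1% of all genes. Basal 43D1 was the lowest for 18 of the 19 and for 13.2% of all genes, so these extremes were not particular to the pair. These pairs were chosen after their values were seen, and the differences between neighbours were not tested.

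The 4 skeletal muscle markers had a median change of 1.31, which without 11D2 was 0.31, with 3 of the 4 above 0. By tumor it was 0.49, 5.77, 0.12, 0.34 and 0.01, and their summed signal ran from 6.12 to 11.06 in basal and 6.62 to 12.67 in final samples. The basal maximum rests on Acta1 in 43D1 (11.02), where Myl11 was at 3.83, Ckm at 4.06 and Actn3 at 5.17. The part of these markers in the values of the interferon-stimulated genes was not tested.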
